A study of Mus musculus with 2 samples.

Results

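Genes of epithelial cell junctions were followed in the liver of normal and diabetic mice: cadherin and catenin genes of the adherens junction, claudin, occludin and plaque genes of the tight junction, and connexin genes of the gap junction. Of 10 gene names, 9 were found among the 8551 genes of the deposited table by their symbol, and Cdh2 was not analysed here. The names were chosen by junction role and selected on a readout already known, the ratio of these same libraries, so all values are a description and no test of the members was made. The table holds genes that average at least 1 TPM over both libraries. The member nearest to that minimum was Ocln, at 6.42 and 4.96 TPM, and Cdh1 was the 1 member below 1 TPM in a library. The normal group was wild type male C57BL/6 mice. The diabetic group was male db/db mice, labelled with the same strain background, which lack the working long form of the leptin receptor in every tissue and become obese and hyperglycaemic. Lepr, the mutated gene, was not analysed here. Livers of both groups were taken at 9 weeks of age, about 3 h into the light phase, after free access to chow, and no treatment is named for either group. The study's methods name a pair of suppliers for the mice without saying which group came from which. There is 1 library per group, and whether the RNA of several mice was pooled is not given in the sources used here. No difference between the libraries therefore has a replicate check.

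Hepatocytes are polarised epithelial cells, and junctions hold neighbouring cells together and seal the bile canaliculus between them. In the adherens junction, cadherins bind each other across the gap and catenins tie their tails to actin. Beta-catenin has a further role as the nuclear effector of Wnt signals, which set the gene programme of hepatocytes around the central vein. E-cadherin in the liver is known for its place on periportal hepatocytes and bile duct cells. Claudins form the strands of the tight junction, with occludin among them and ZO proteins beneath, and some claudins seal the path between cells while claudin-2 forms pores for cations and water. Connexins form the gap junction channels through which hepatocytes pass ions and small messengers.

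The libraries counted short tags next to cut sites of DpnII, an enzyme that cuts at GATC, and the protocol counts the site nearest to the 3′ end of each poly(A) transcript. The expected tags are shown because they are the piece of each gene that was measured. They were read from GENCODE M21 transcripts (GRCm38) that match a RefSeq mRNA, as the site and the 16 bases after it, with the site in capitals. They are not the counted tags, since the deposited table gives sums per gene.
Cdh1: GATCtccctgagttcgaggc
Ctnnb1, longer transcript: GATCtatttcatgtttttga
Ctnnb1, shorter transcript: GATCtgggacacgcccagga
Cldn1: GATCagttgatatctggggg
Cldn2: GATCaataaacggatgttga
Cldn3: GATCcaccggccctggcacc
Ocln: GATCaaggtttccattttga
Tjp1: GATCcgaattaccttgttgg
Gjb1: GATCaacaagctgctgagcg
Gjb2: GATCtcacagggtctttaag

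All 9 genes had a DpnII site in each of their 13 RefSeq-matched transcripts. The transcripts of Tjp1 share a tag, as do those of Gjb1. As exact matches, 0 of the 13 tags occurred in a GENCODE M21 transcript of another gene. Near matches and matches elsewhere in the genome were not searched, so it is not known whether each tag, that of Cdh1 included, is unique. The Cdh1 tag lies at chr8:106669758-106669777 on the plus strand, in the 3′ UTR of exon 16, 489 bases before the transcript's end. The Cldn1 tag is in the 3′ UTR at chr16:26356707-26356726 on the minus strand. The Cldn2 tag is in the 3′ UTR at chrX:139811359-139811378, 28 bases before the end. The Cldn3 tag is in the coding sequence at chr5:134987046-134987065, and that of Tjp1 is in the coding sequence at chr7:65297610-65297629 on the minus strand. Gjb1 has only 1 site in each RefSeq-matched transcript, in the coding sequence at chrX:101384908-101384927, so a transcript cut there can give 1 tag. The Gjb2 tag is in the 3′ UTR at chr14:57099422-57099441 on the minus strand, and the Ocln tag in the 3′ UTR at chr13:100496620-100496639, also on the minus strand. For Ctnnb1 the tag depends on the transcript, with a site in the 3′ UTR of the longer form (chr9:120960308-120960327) and one in the coding sequence of the shorter form (chr9:120959434-120959453). The values per gene cannot separate these forms.

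**Figure D1:**
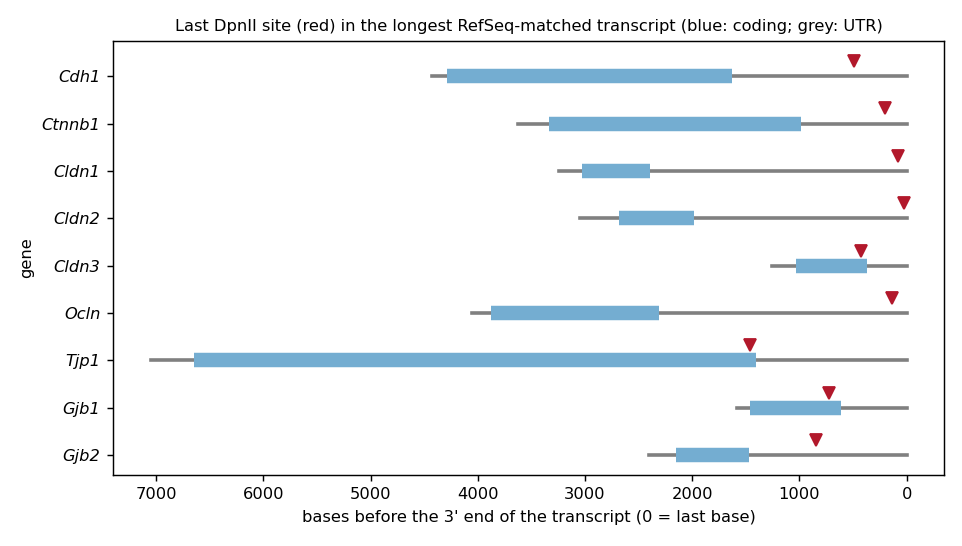
Position of the DpnII site nearest to the 3′ end (red triangle) in the longest RefSeq-matched transcript of each gene, drawn to scale in bases before the 3′ end, with coding sequence in blue and UTR in grey. The site is 28 bases from the end in Cldn2 and 1465 bases from the end in Tjp1.

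Values are in TPM, the tags of a gene per 1000000 clean tags of its library, and are not scaled by gene length. Levels were compared between libraries and not between genes, apart from shares of reads among the claudin genes and among the connexin genes. One read was 0.0973 TPM in normal liver and 0.074 TPM in db/db liver, and these steps gave 10278530 and 13508232 clean tags. Fold changes are diabetic over normal, and their 95% Clopper-Pearson intervals, from the reads, cover counting error only, since without molecular identifiers several tags may stem from 1 molecule. Over all 8551 listed genes, 34.4% were higher in db/db liver by at least 1.5-fold and 15.3% were lower by as much, and the median log2 ratio was 0.25. A fold of at least 1.5 with no test is what is meant by higher or lower in the counts that follow. Under 4 other scalings between the libraries each log2 ratio fell by 0.25 to 0.31, and the median of all genes then lay between -0.05 and 0. The split of all genes then became nearly even, with 1876 to 2054 higher and 2022 to 2188 lower in place of 2941 and 1310.

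The cadherin, beta-catenin and 2 of the 3 claudin genes were lower in db/db liver, while both connexin genes were higher, Gjb1 only as deposited and not under the 4 scalings. Of the 9 genes, 4 were at least 1.5-fold lower (Cdh1, Cldn1, Cldn3 and Ctnnb1), 2 were at least 1.5-fold higher (Gjb1 and Gjb2), and Cldn2, Ocln and Tjp1 lay within 1.5-fold. Their median log2 ratio was -0.37. Under each of the 4 scalings 1 gene, Gjb2, was higher and 5 were lower, Ocln being the fifth. Lower genes were thus 44.4% of the members against 15.3% of all genes, and higher genes 22.2% against 34.4%, shares from which nothing is read because the members were named with these ratios in view. The genes nearest to the fold of 1.5 were Ctnnb1 at 1.52-fold lower and Cldn3 at 1.54-fold lower, just past it, and Tjp1 at 1.43-fold higher, just short of it.

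**Figure D2:**
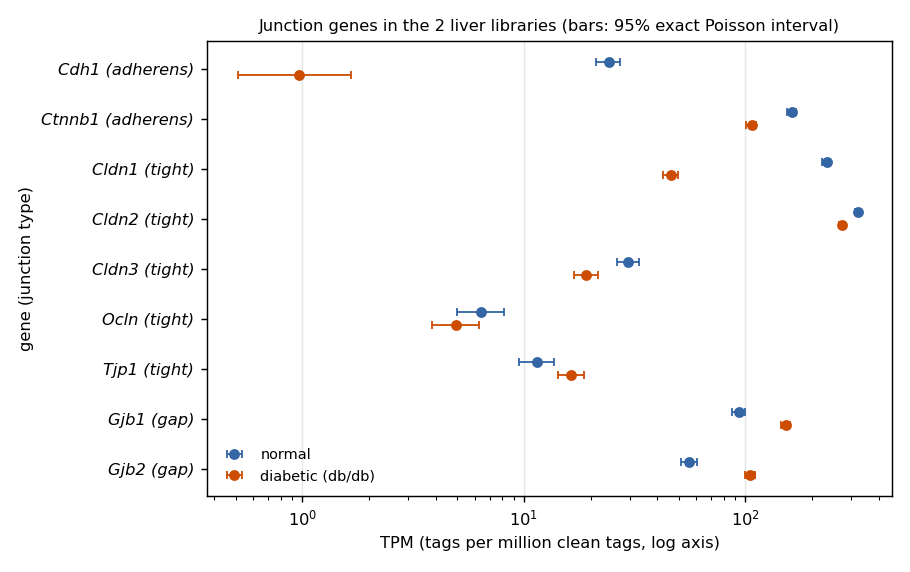
TPM of the 9 junction genes in the normal (blue) and diabetic (orange) libraries on a log axis, 1 library per group, with 95% exact Poisson intervals for counting error. Cdh1 is the farthest apart, at 24.1 and 0.96 TPM, and the intervals of Ocln overlap.

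Cdh1 (Entrez 12550) encodes E-cadherin, the main cadherin of epithelia. It was at 24.1 TPM in normal liver and at 0.96 TPM in db/db liver. These values came from 248 and 13 reads, so the diabetic value is not at the floor of 3 reads, which is 0.222 TPM, but its counting error is wide. Cdh1 was 25.1-fold lower (95% interval, 14.4 to 47.8), a log2 ratio of -4.65 (-5.58 to -3.85). With genes at 3 reads or fewer set to 3 reads, it had the 10th lowest ratio of all 8551 genes. Among the 3673 genes averaging at least 10 TPM it ranked 6 from the lowest. Cdh1 is in that set only through its normal value. The members were also named with these ratios in view, so both ranks are a description and no support. No other member was near a difference of 25.1-fold, and that of Cdh1 was larger under each of the 4 scalings, up to 31.1-fold.

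Ctnnb1 (Entrez 12387) encodes beta-catenin, which binds the cadherin tail and also acts in the nucleus. It was at 162 TPM from 1665 reads in normal liver and at 107 TPM from 1442 reads in db/db liver. The gene was 1.52-fold lower (95% interval, 1.41 to 1.63), so counting error alone spans the fold of 1.5. Its log2 ratio of -0.60 was between -0.91 and -0.85 under the 4 scalings. The difference in Ctnnb1 was therefore much smaller than that of its partner Cdh1, and the intervals of both log2 ratios were far apart.

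Cldn1 (Entrez 12737) encodes claudin-1, a sealing claudin. It was at 233 TPM from 2392 reads in normal liver and at 46 TPM from 621 reads in db/db liver, which was 5.06-fold lower (95% interval, 4.63 to 5.54). This was the 80th lowest ratio of all listed genes, and rank 21 from the lowest among genes averaging at least 10 TPM. Cldn3 (Entrez 12739), another sealing claudin, was at 29.6 TPM from 304 reads and at 19.2 TPM from 259 reads. Its 1.54-fold lower value had a 95% interval of 1.3 to 1.83. Both sealing claudins were thus on the same side, with Cldn1 much farther from equal.

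Cldn2 (Entrez 12738), the pore-forming claudin, was at 323 TPM from 3315 reads in normal liver and at 274 TPM from 3700 reads in db/db liver. It was 1.18-fold lower (95% interval, 1.12 to 1.23), and under the 4 scalings its log2 ratio of -0.24 became -0.54 to -0.49, still within 1.5-fold. The claudin genes together were at 585 and 339 TPM, a log2 ratio of -0.79 (-0.84 to -0.73). Their make-up differed as well. Cldn2 took 55.1% of the reads of the 3 claudin genes in normal liver (95% Clopper-Pearson interval, 53.9% to 56.4%) and 80.8% in db/db liver (79.6% to 81.9%). Cldn1 took 39.8% (38.6% to 41.0%) and 13.6% (12.6% to 14.6%). The share of Cldn3 was 5.06% (4.52% to 5.64%) and 5.66% (5.0% to 6.36%), with overlapping intervals. These shares do not depend on the scaling between the libraries.

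Ocln (Entrez 18260) encodes occludin, a membrane protein of the tight junction strand. It was at 6.42 TPM from 66 reads in normal liver and at 4.96 TPM from 67 reads in db/db liver. Counting error put its log2 ratio of -0.37 anywhere from -0.88 to 0.14 (95% interval), so at the deposited scaling a difference was not detectable at this depth. Under each of the 4 scalings Ocln passed the fold of 1.5, with log2 ratios of -0.68 to -0.62, and the interval, moved by as much, then lay wholly below 0. Tjp1 (Entrez 21872) encodes ZO-1, the plaque protein that links claudins and occludin to actin. It was at 11.5 TPM from 118 reads in normal liver and at 16.4 TPM from 221 reads in db/db liver, with a log2 ratio of 0.51 (95% interval, 0.18 to 0.85). This ratio was 0.21 to 0.26 under the 4 scalings, where its interval, moved by as much, spanned 0. Ocln and Tjp1 thus lay on opposite sides of equal, and both were measured with far fewer reads than Cldn1 and Cldn2.

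Gjb1 (Entrez 14618) encodes connexin 32, the major connexin of hepatocytes. It was at 93.3 TPM from 959 reads in normal liver and at 152 TPM from 2052 reads in db/db liver. The gene was 1.63-fold higher (95% interval, 1.51 to 1.76). Under the 4 scalings it was 1.32- to 1.37-fold higher and no longer past 1.5-fold. Gjb2 (Entrez 14619) encodes connexin 26, which in the mouse liver joins connexin 32 in periportal gap junctions. It was at 55.5 TPM from 570 reads and at 105 TPM from 1423 reads, 1.90-fold higher (95% interval, 1.72 to 2.10). Gjb2 stayed past 1.5-fold under the 4 scalings, at 1.54- to 1.59-fold. The connexin genes together were at 149 and 257 TPM, a log2 ratio of 0.79 (0.70 to 0.88). Gjb1 took 62.7% of their reads in normal liver (60.2% to 65.2%) and 59.1% in db/db liver (57.4% to 60.7%), so the make-up of this pair differed little beside that of the claudins.

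**Figure D3:**
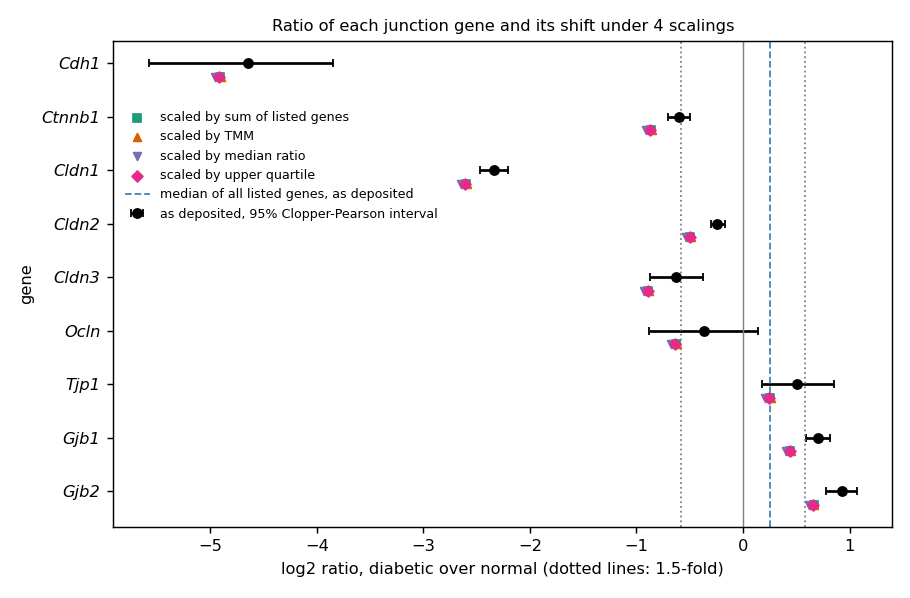
Log2 ratio of diabetic over normal TPM for each junction gene, with its 95% Clopper-Pearson interval (black), and the same ratio under 4 scalings (coloured symbols); dotted lines mark 1.5-fold and the dashed line the median of all listed genes at 0.25. No gene crosses 0 under a scaling, while Gjb1 leaves and Ocln passes the fold of 1.5.

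**Figure D4:**
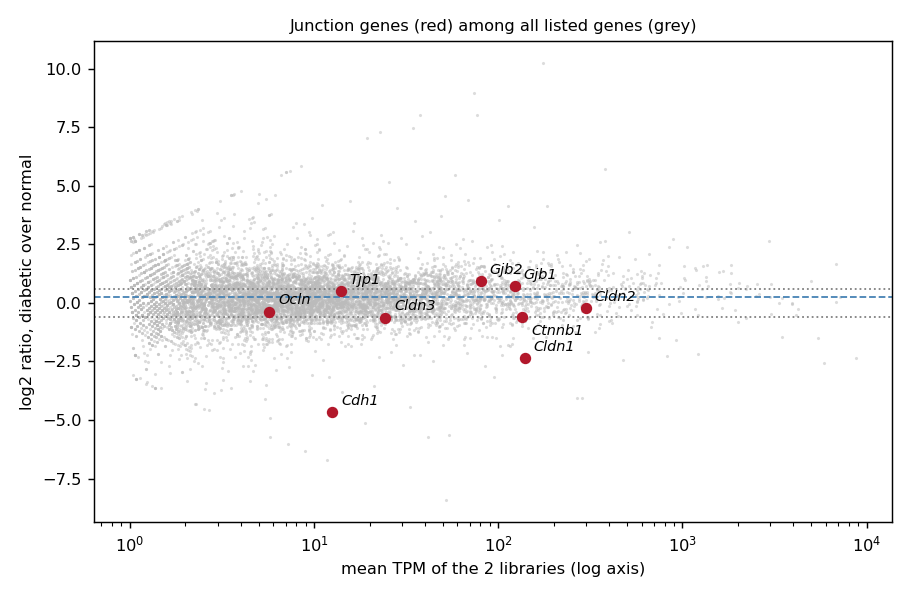
Log2 ratio of diabetic over normal against the mean TPM of both libraries (log axis) for 8551 listed genes (grey) and the junction genes (red). Cdh1 at -4.65 and Cldn1 at -2.34 lie at the lower edge of the cloud, and the other members lie inside it.

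Other genes of the same structures were taken from lists of related genes. Of 85 further names of junction and polarity genes, 46 had a value, and 12 of these were higher and 8 lower, with the median log2 ratio at -0.03. Under each of the 4 scalings the numbers were 6 higher and 17 lower. The other genes listed with the adherens junction did not share the low value of Cdh1. Of 12 genes, 4 were higher and 1 lower, with a median log2 ratio of 0.10. Under each of the 4 scalings 2 were higher and 4 lower, and the median turned below 0, to between -0.21 and -0.16. Ctnnd1, which encodes p120-catenin, the stabiliser of cadherins at the membrane, was at 5.84 and 15.4 TPM in normal and db/db liver, 2.64-fold higher. Ctnnbip1, an inhibitor of the binding of beta-catenin to its DNA-binding partner, was at 2.04 and 6.37 TPM from 21 and 86 reads. It is counted among the 12 and the 46 genes, though it acts on beta-catenin and is not a structural part of the junction. Its log2 ratio of 1.64 was the highest of the 12, and it stayed higher under each of the 4 scalings. Ctnna1, which encodes alpha-catenin, was at 19.1 and 26.8 TPM, within 1.5-fold. The 1 lower gene was Pvr, a nectin-like adhesion molecule, with 18 and 14 reads and an interval of its log2 ratio from -1.88 to 0.33.

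Among 15 other tight junction genes, 5 were lower and 3 higher, and the median log2 ratio was -0.14. Cldn5, the claudin of endothelium, was at 7.59 TPM from 78 reads in normal liver and at 1.18 TPM from 16 reads in db/db liver, 6.43-fold lower. Lsr, which encodes the lipolysis-stimulated lipoprotein receptor, also a protein of tricellular junctions, was at 63.2 and 19.8 TPM, 3.19-fold lower (log2 ratio -1.67, 95% interval -1.88 to -1.46). The plaque genes were on both sides. Cgn, which encodes cingulin, was at 13.04 and 5.63 TPM, 2.32-fold lower, and Tjp3, which encodes ZO-3, at 18 and 8.74 TPM, 2.06-fold lower. Csda, the ZO-1 associated DNA-binding protein, was at 1.85 and 4.66 TPM, 2.52-fold higher. Tjp1 was thus above and Tjp3 below equal.

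The other gap junction list had 2 genes with a value. Gja4, which encodes connexin 37 of vessels, was at 8.76 and 5.26 TPM, a log2 ratio of -0.74 (95% interval, -1.21 to -0.27), opposite in sign to Gjb1 and Gjb2. Desmosome and keratin genes, which anchor intermediate filaments between cells, were higher in 4 of 7 cases and lower in 0, with a median log2 ratio of 0.68. Perp, a membrane protein of desmosomes, was at 61.0 and 122.7 TPM, 2.01-fold higher. Krt18, the keratin 18 gene of hepatocytes, was at 169 and 278 TPM, 1.64-fold higher, Pkp4, a plakophilin, was 1.71-fold higher, and Dsg2, a desmosomal cadherin, 1.60-fold higher. Under each of the 4 scalings only Perp of this list stayed at least 1.5-fold higher. Of 10 polarity genes, 1 was higher and 1 lower. These were Lin7c at 6.03 and 11.8 TPM and Dlg1 at 11.2 and 6.29 TPM, both scaffold proteins of the lateral membrane. Under each scaling 5 of the 10 were lower.

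Since beta-catenin acts in both places, the genes that control it and its known target genes in liver were also listed. Of 4 genes of the complex that marks beta-catenin for degradation, Gsk3a was at 27.6 and 52.9 TPM, 1.92-fold higher, and Gsk3b at 15.6 and 10.5 TPM, 1.48-fold lower, so these kinase genes lay on opposite sides. Of 11 target genes, 5 were higher and 0 lower, and the median log2 ratio was 0.32 beside 0.25 for all genes. Oat, ornithine aminotransferase of pericentral hepatocytes, was at 338 and 1785 TPM, 5.29-fold higher. Rhbg, an ammonium transporter of the same cells, was at 6.03 and 17.5 TPM, 2.91-fold higher, and Axin2, a general Wnt target, had 21 and 64 reads. Cyp1a2, a pericentral cytochrome P450, was at 163 and 117 TPM, 1.39-fold lower. As deposited, 45.5% of the list was higher and 0% lower, beside 34.4% and 15.3% of all genes. Under each of the 4 scalings 3 of the 11 were higher and 1 lower. The median of the list was then 0.02 to 0.07, beside -0.05 to 0 for all genes. Ctnnb1 itself was lower, and beta-catenin activity was not tested.

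Genes of known transcriptional repressors of Cdh1 were measured with few reads. Of 4 genes with a value, Zeb1 had 8 reads in normal liver and 37 in db/db liver, a log2 ratio of 1.81 with an interval of 0.69 to 3.13, and Tcf3 had 48 and 101 reads, 1.60-fold higher. Snai2 had 26 and 45 reads and Zeb2 19 and 18 reads, and for both the interval of the log2 ratio spanned 0. Under each scaling 1 gene of this list was higher and 1 lower. Proteins of the Snail and ZEB families bind the E-box CACCTG. Promoter windows of 250 bases before to 50 bases after the start were available for 8 of the 9 members, from RefSeq (GRCm38.p6), with 13 windows in all. The promoter of Cdh1 was not searched here, so the search says nothing of Cdh1 itself. The motif CACCTG, searched on both strands, was in 5 of the 13 windows, of the genes Cldn3, Gjb1, Gjb2 and Ocln, and in 20.2% of all 32851 promoter windows. The Ocln windows overlap, and a site that they share is counted in both. Gjb1 had the motif in its window at chrX:101383482-101383781 and not in its other windows. Which of these starts is used in liver was not tested. The windows of the most different tight junction gene with an entry and of the more different connexin gene are shown, with the motif as CAGGTG in capitals where present.
Cldn1, chr16:26371790-26372089, minus strand: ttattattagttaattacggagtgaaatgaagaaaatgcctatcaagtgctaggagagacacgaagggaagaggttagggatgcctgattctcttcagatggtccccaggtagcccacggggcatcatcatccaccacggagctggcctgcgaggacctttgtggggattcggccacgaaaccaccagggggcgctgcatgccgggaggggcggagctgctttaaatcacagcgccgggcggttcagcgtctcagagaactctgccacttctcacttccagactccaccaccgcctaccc
Gjb2, chr14:57104653-57104952, minus strand: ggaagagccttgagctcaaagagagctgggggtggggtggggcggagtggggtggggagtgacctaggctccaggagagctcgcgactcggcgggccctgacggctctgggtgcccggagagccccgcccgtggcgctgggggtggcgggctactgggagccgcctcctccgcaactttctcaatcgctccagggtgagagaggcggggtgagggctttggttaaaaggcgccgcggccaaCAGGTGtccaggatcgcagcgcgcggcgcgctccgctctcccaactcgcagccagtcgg

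Genes with the motif in any window lay on both sides, with Gjb1 and Gjb2 higher in db/db liver, Cldn3 lower and Ocln within 1.5-fold. Of those without it, Cldn1 and Ctnnb1 were lower and Cldn2 and Tjp1 within 1.5-fold. A match is a description of the sequence and not a bound site.

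**Figure D5:**
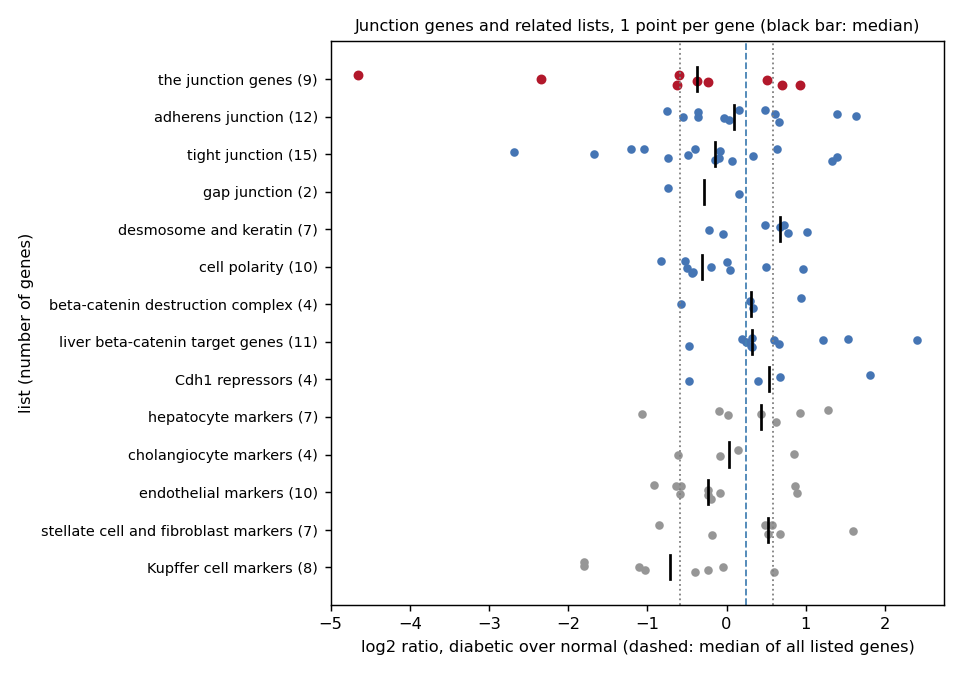
Log2 ratio of diabetic over normal for each gene of the junction genes (red), of related lists (blue) and of cell type marker lists (grey), with the median of each list as a black bar, dotted lines at 1.5-fold and a dashed line at the median of all listed genes. Cdh1 at -4.65 is the lowest point, and the desmosome and keratin list has 0 genes at least 1.5-fold lower.

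Whole liver holds several cell types, and fewer cells of a type and less RNA per cell cannot be told apart in these libraries. The tissue label matched its markers, with Alb, the albumin gene of hepatocytes, at 6801 and 6912 TPM. Of 7 hepatocyte markers, 3 were higher and 1 lower, and their summed level was 9087 TPM in normal and 10062 TPM in db/db liver. The lower one was Hnf4a, a master transcription factor of hepatocytes, at 96.8 and 46.2 TPM. With the 4 scalings 2 were higher and 1 lower. Alb, which made up most of that sum, had a log2 ratio of 0.02 as deposited and -0.28 to -0.23 when scaled. The summed levels of all marker lists are as deposited, so their direction can depend on the scaling. Bile duct cells also express Cdh1 and Cldn3. Of 4 cholangiocyte markers with a value, 1 was higher and 1 lower, with a summed level of 67.1 and 111 TPM, and none was at 0. When scaled, 1 was lower in each case, and 0 were higher by median ratio and upper quartile. Epcam, their surface adhesion molecule, had 33 and 41 reads, and its log2 ratio of -0.08 (95% interval, -0.78 to 0.63) did not share the low value of Cdh1. Spp1, which made up most of that sum, was 1.80-fold higher.

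Of 10 endothelial markers, 2 were higher and 3 lower, with a summed level of 151 and 127 TPM. When scaled, 4 were lower in each case, and 2 were higher except by median ratio, which left 0. As deposited, the lower ones were Tie1, with a log2 ratio of -0.92 (95% interval, -1.39 to -0.46), Clec4g at -0.64 and Eng at -0.59. These lay on the same side as Cldn5, whereas Kdr and Lyve1 were higher. Cdh5, the endothelial cadherin, was at 13.7 and 11.7 TPM, within 1.5-fold. Of 8 Kupffer cell markers, 1 was higher and 4 lower, with a summed level of 327 and 194 TPM, and each of the 4 scalings gave 0 higher and 5 lower. Of 7 stellate cell and fibroblast markers, 2 were higher and 1 lower, with a summed level of 117 and 160 TPM. Each scaling left 1 of these higher and 1 lower. Of the markers in these lists, 0 were at 0 reads. The part of these shifts in the values of the junction genes was not tested.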

How the data were processed

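Poly(A) RNA of liver was made into cDNA, cut with DpnII and sequenced as tags on an Illumina 1G sequencer. The authors removed adaptors, compared clean tags with RefSeq and deposited values they call TPM, which are RPM values: tags of a gene per 1000000 clean tags, rounded to 2 decimals, with 0.01 for no tag and genes under a mean of 1 TPM left out. The submitters' processing notes name mm9, and the aligner is not given in the sources used here. The number of columns not used was 0.

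Whole reads were read from the equal steps of the values, and 8513 of 8513 values in the normal and 8536 of 8537 in the diabetic library were whole within the rounding. Depth was 10278530 and 13508232 clean tags, of which 37.06% and 44.37% lay on listed genes. Ratios are of the deposited values, with a gene at 3 reads or fewer set to 3 reads, and intervals are 95% Clopper-Pearson intervals. With 1 library per group no test of the condition was possible. The members and lists were chosen with earlier results of these data known. All members are named. From each other junction list at most 6 genes were named, those with the largest ratio in either direction, with Ctnna1 and Krt18 named in any case, and single values of 2 listed genes are not reported here, and marker genes were named after their values were seen.

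Alternatives were 4 scalings (the sum of listed genes, the trimmed mean of M values or TMM with 30% of log ratios and 5% of abundances trimmed, the median ratio of genes averaging 10 TPM or more, and the upper quartile), a pseudocount of 0.1 or 1 TPM, a stricter minimum of 5 TPM on average, a fold of 2, and an exact binomial test (two-sided) of the reads, adjusted by Benjamini-Hochberg over all listed genes. The steps were tested on simulated reads. Python 3.11.15, numpy 2.4.6, pandas 2.3.3, scipy 1.17.1 and matplotlib 3.10.9 were used.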

Additional observations from a re-analysis of the deposited data

How the results depend on the processing

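At a fold of 1.5 and as deposited, the junction genes counted 2 higher and 4 lower. Scaling to the sum of listed genes, by TMM, median ratio and upper quartile left 1 higher in each case, and a fold of at least 2 left 0 higher and 2 lower. The median log2 ratio of the junction genes was -0.37, and -0.63, -0.62, -0.68 and -0.64 under these scalings in that order and -0.32 with a pseudocount of 1 TPM. For all listed genes the median of 0.25 became -0.01, 0, -0.05 and -0.02 under the scalings, 0.22 with a pseudocount of 1 TPM and 0.27 at a mean of at least 5 TPM. All listed genes counted 2941 higher and 1310 lower at a fold of 1.5. The lower genes numbered 2044, 2022, 2188 and 2076 under the scalings, and 1876 were higher by median ratio. At a mean of at least 5 TPM 1773 were higher and 658 lower, and at a fold of 2 they were 1589 and 582. With an exact test FDR under 0.001 added, which compares 2 libraries and not the conditions, 1928 were higher and 690 lower. No junction gene changed direction under any alternative run for its ratio. Depth limits the precision of Ocln, with 66 and 67 reads, and the diabetic value of Cdh1, with 13. No paired analysis was possible because there is 1 library per group.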
